A study of Mus musculus with 12 samples.

Results

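Erythroblasts read the hormone erythropoietin (EPO) and stem cell factor through a small set of genes that were followed here over the maturation of mouse bone marrow erythroblasts. The set was chosen by name, with earlier results of these data known. It held the receptors Epor and Kit, the kinase Jak2 and the transcription factors Stat5a and Stat5b. It also held the feedback inhibitors Cish, Socs1, Socs2 and Socs3, and the survival kinase Pim1. All 10 genes were found among the 29838 genes of the expression table, and all 10 were among the 12994 genes with enough expression to be tested. RNA sequencing had been done on proerythroblasts (Pro), basophilic (Baso), polychromatic (Poly) and orthochromatic erythroblasts (Ortho), with 3 libraries for each of the 4 stages. All cells were wild type and came from the bone marrow of male C57BL/6 mice, which were 8 weeks old. Pro were sorted as CD44 high, Ter119 low cells and the later stages as Ter119 positive cells split by CD44 and cell size, after CD45 positive cells had been depleted. Ortho replicates 2 and 3 have the unspecific cell type "Erythroblast" in their labels, and only the titles name the stage. Neither the number of mice behind a library nor whether the libraries came from separate mice is given in the sources used here, so p-values measure the spread between these libraries.

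EPO binds a pair of EPO receptors, each of which carries a JAK2 molecule, and JAK2 then phosphorylates the receptor and the STAT5 proteins. STAT5 moves to the nucleus and binds sites of the form TTCNNNGAA, and among the genes it drives are those for Cish and the Socs proteins, which shut the receptor complex down, and for Pim1 and Bcl2l1, which protect cells from death. Stem cell factor acts through KIT, a receptor with its own kinase domain that is used by early erythroid progenitors and is known to be lost from the surface as erythroblasts mature, while the dependence on EPO is known to be strongest in the early stages.

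Levels are given as FPKM, fragment counts scaled to transcript length and to the mapped fragments of the library, so that genes can be compared. The depth behind each value is unknown, so the error of a level is the standard deviation (SD) over the 3 libraries of a stage. Differences between stages are log2 fold changes of FPKM + 1 with their standard errors (SE) from limma, and on this scale a change is understated where the FPKM is low. A difference passed the test at a Benjamini-Hochberg adjusted p under 0.05 over all genes tested, and it was called when the log2 fold change was also 1 or more, up or down. Baso, Poly and Ortho were each set against the same Pro libraries, so these 3 comparisons are not independent of each other.

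In Baso against Pro, 3 of the 10 genes were higher (Cish, Socs1 and Pim1) and 1 was lower (Stat5a), while over all genes tested 57% passed, 14.9% higher and 42.1% lower. In Poly against Pro, 4 genes were higher (Jak2, Socs1, Socs3 and Pim1) and Stat5a was lower, beside 66.1% of all genes, 23.3% higher and 42.7% lower. In Ortho against Pro, 3 genes were higher (Socs1, Socs3 and Pim1) and 3 were lower (Epor, Jak2 and Stat5a), beside 75.9% of all genes, 22.7% higher and 53.2% lower. Of these, Cish and Stat5a were called in Baso, Pim1 and Stat5a in Poly, and Pim1, Epor and Stat5a in Ortho, and the shares of all genes called were 10.4%, 16.4% and 30.1%. Between neighbouring later stages the calls were fewer. From Baso to Poly, Cish fell and Socs1 rose, neither by a log2 fold change of 1, beside 12.4% of all genes that passed (6.58% higher and 5.77% lower) and 0.516% that were called. From Poly to Ortho, Epor and Jak2 fell and Pim1 rose, of which only Epor was called, beside 26.1% that passed (4.43% higher and 21.7% lower) and 5.86% that were called. The median log2 fold change of the 10 genes was 0.19, 0.22 and -0.02 in Baso, Poly and Ortho against Pro, and that of all genes tested was -0.23, -0.20 and -0.42. Over the 4 stages together, limma's F test passed 7 of the 10 genes and 78.4% of all genes, and the 3 that did not pass were Kit (adjusted p = 0.181), Stat5b (adjusted p = 0.317) and Socs2 (adjusted p = 0.179).

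**Figure D1:**
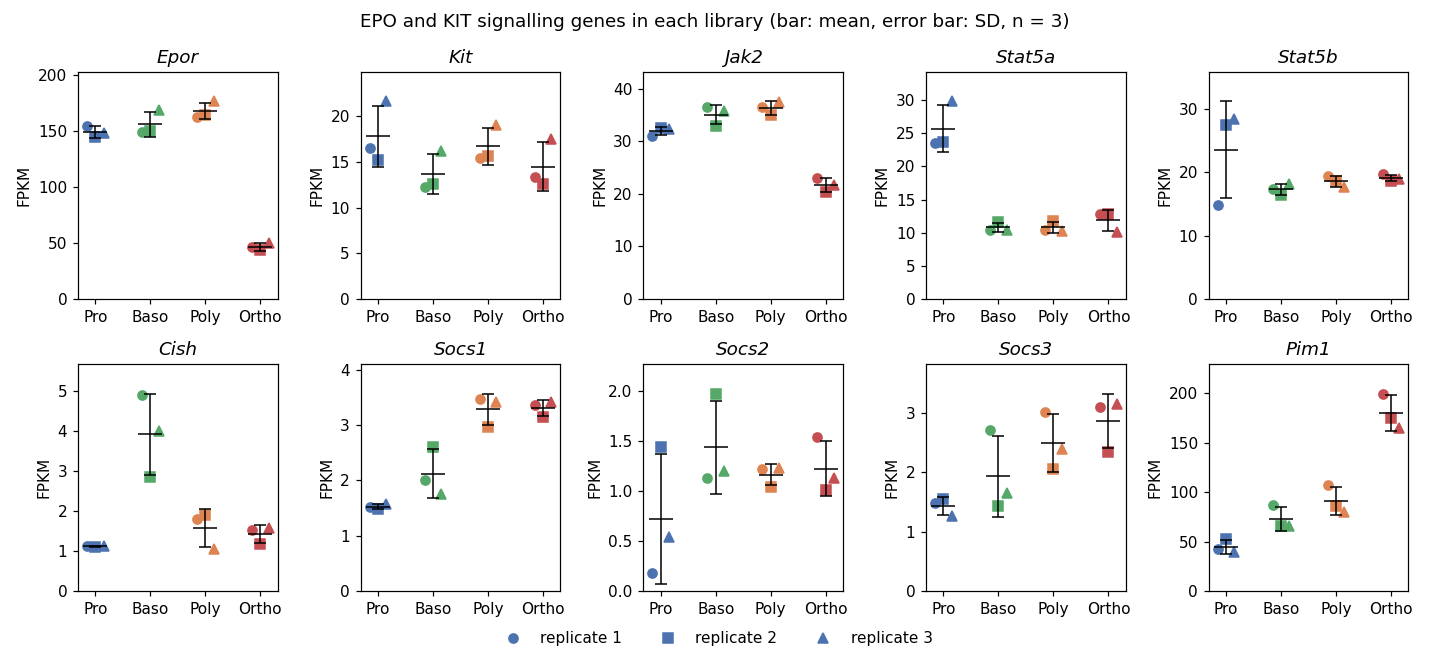
FPKM of each of the 10 genes in the 12 libraries by stage, with points for libraries and a dash with an error bar for the mean and SD of 3 libraries; each panel has its own linear axis from 0. Epor falls from a mean of 168 in Poly to 46.5 in Ortho, Pim1 climbs from 44.8 in Pro to 180.1 in Ortho, Stat5a is high in Pro only, and Cish is highest in Baso.

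FPKM is a share of a library, and the share taken by hemoglobin transcripts differed strongly between stages. The 12 hemoglobin genes of the table took 6.98% to 10.7% of the summed FPKM of Pro libraries, 33.2% to 36.7% of Baso, 34.8% to 37.6% of Poly and 47.2% to 52.6% of Ortho. The summed FPKM of 6 erythroid markers was 20090 to 31490 in Pro and 167900 to 200500 in Ortho, and all 6, among them Slc4a1, the anion exchanger of the red cell membrane, passed as higher in each later stage. With the hemoglobin genes left out and the libraries rescaled, the median over all genes of the log2 fold change from Pro to Ortho moved from -0.42 to -0.01, and with the libraries rescaled to the same sum it moved to -0.73. Centring the libraries on their median gave -0.03. The values of each gene under these scalings are given below where its test against Pro passed under some of them and not under others.

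Markers of other blood cells were also present, and most lists were higher in the later stages than in Pro. CD45 positive cells had been depleted and the sort gate took cells negative for CD45, CD11b and GR1, which would remove neutrophils, macrophages and lymphocytes. The 8 neutrophil markers summed to 7041 to 8895 FPKM (Pro), 12230 to 14400 (Baso), 15790 to 18780 (Poly) and 14030 to 17430 (Ortho), and all 8 passed as higher than in Pro in each later stage. The 5 B cell markers summed to 124 to 197 FPKM in Pro and 392 to 407 in Ortho, and all 5 passed as higher in Ortho. The 6 mast cell and basophil markers summed to 241 to 380 FPKM in Pro and 638 to 754 in Ortho, and all 6 passed as higher than in Pro in each later stage. From Baso to Poly and from Poly to Ortho, no marker of the neutrophil list or of this list passed. Of the 7 macrophage markers only 3 were expressed enough to be tested, and 2 of them passed as higher in Ortho, with sums of 16.2 to 22.7 FPKM in Pro and 37.2 to 42.8 in Ortho, while C1qa, C1qb, C1qc and Marco stayed under the expression filter. Of the 5 T and NK cell markers only 1 was tested, Nkg7, which passed as higher in Ortho, and the sums were 20.9 to 28.1 FPKM in Pro and 32.5 to 38.0 in Ortho. The 5 megakaryocyte and platelet markers went the other way, from 66.5 to 121 FPKM in Pro to 35.8 to 45.2 in Ortho, with 4 lower and 1 higher. The 6 progenitor markers summed to 73.0 to 89.9 FPKM in Pro and 118 to 127 in Ortho, with 4 higher. With libraries rescaled to the same sum, 6 of the 8 neutrophil markers, all 5 B cell markers and all 6 mast cell and basophil markers still passed as higher in Ortho. Of the other lists, 2 macrophage markers were higher and 1 was lower, 2 of the 6 progenitor markers were higher, and Nkg7 did not pass. Pim1, Socs1, Socs3 and Kit are also expressed by myeloid, lymphoid or mast cells, and the part of such cells in the results below was not tested. In bulk RNA, fewer cells of a type and less RNA per cell cannot be told apart.

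**Figure D2:**
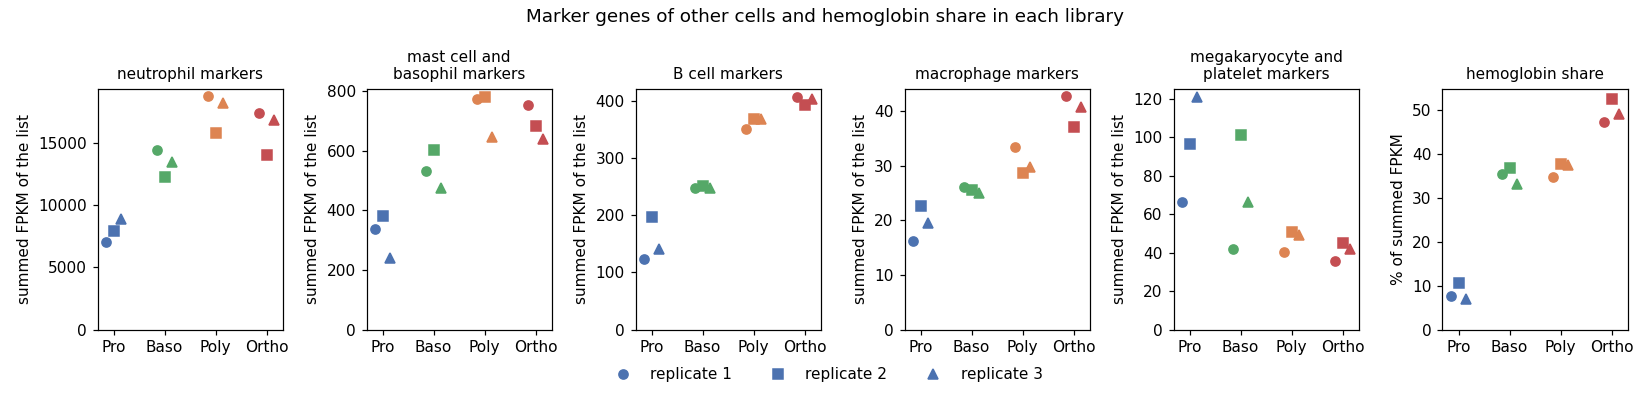
Summed FPKM of the marker lists of other blood cells and the hemoglobin share of the summed FPKM in each of the 12 libraries, by stage. Neutrophil markers go from 7041 to 8895 in Pro to 14030 to 17430 in Ortho, and the hemoglobin share from 6.98% to 10.7% in Pro to 47.2% to 52.6% in Ortho.

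Epor, the EPO receptor gene (ENSMUSG00000006235, chr9:21958897-21963506 on the minus strand of mm10), was by FPKM the highest of the 10 genes in Pro, Baso and Poly and second to Pim1 in Ortho. Its promoter is shown because erythroid expression of this receptor is known to depend on GATA1, whose motif GATAAG stands in it on the opposite strand. The capitals mark this motif, at -55 to -50 counted from the RefSeq start site, whose own base is 1 (GRCm38.p6, chr9:21963577-21963656, minus strand):
Epor promoter: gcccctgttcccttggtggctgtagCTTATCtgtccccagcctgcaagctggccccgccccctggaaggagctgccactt
GATAAG or its complement, on either strand, stood in 7.44% of the 32851 RefSeq promoter windows. These windows span 250 bases before to 50 bases after a start site, and the Epor sequence shown is a stretch of its window.

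The FPKM of Epor was 154, 144 and 148 in the Pro libraries, 149, 150.1 and 168 in Baso, 162, 164 and 176 in Poly, and 45.9, 43.4 and 50.05 in Ortho. The first 3 stages lay close together, Baso overlapping both its neighbours, and all Ortho libraries lay far below all others. The mean was 149 ± 5.31 (Pro), 156 ± 10.99 (Baso), 168 ± 7.42 (Poly) and 46.5 ± 3.36 (Ortho) (SD, n = 3 each). Epor was not shown to differ between Pro and Baso (log2 fold change 0.06, SE 0.08, adjusted p = 0.495) or between Baso and Poly (0.11, SE 0.08, adjusted p = 0.376). Baso did pass as higher than Pro with libraries centred on their median (0.36, adjusted p = 0.00163) and with hemoglobin genes left out (0.38, adjusted p = 0.0015). Epor fell from Poly to Ortho by 1.83 on the log2 scale (SE 0.08, adjusted p = 2.08e-08), a mean 3.61 times lower, and was 3.20 times lower in Ortho than in Pro (log2 fold change -1.66, SE 0.08, adjusted p = 9.83e-09). Both falls passed under every alternative scaling, filter and left-out library, the one against Pro at -2.02 to -1.17. Even at its lowest, the mean of Epor exceeded that of 90.8% of the genes tested in Ortho, against 97.4% in Poly. Poly was higher than Pro by 0.17 with an adjusted p of 0.0652, and this difference passed at 0.42 with libraries centred on their median (adjusted p = 0.000403) and at 0.52 with hemoglobin genes left out (adjusted p = 0.000108). It stood at -0.01 with libraries rescaled to the same sum (adjusted p = 0.926).

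Kit, the receptor of stem cell factor (ENSMUSG00000005672, chr5:75574916-75656722, plus strand), showed no such step between Poly and Ortho. Its FPKM was 16.5, 15.3 and 21.6 in Pro, 12.3, 12.6 and 16.3 in Baso, 15.4, 15.6 and 19.1 in Poly, and 13.4, 12.6 and 17.6 in Ortho. The stages overlapped in all 5 comparisons, and replicate 3 was the highest library within every stage. The means were 17.8 ± 3.38 (Pro), 13.7 ± 2.19 (Baso), 16.7 ± 2.06 (Poly) and 14.5 ± 2.69 (Ortho) (SD, n = 3 each). The log2 fold change against Pro was -0.35 in Baso (SE 0.16, adjusted p = 0.0849), -0.08 in Poly (adjusted p = 0.689) and -0.28 in Ortho (adjusted p = 0.134). The sign in Poly and Ortho turned with the hemoglobin genes left out, to 0.25 and 0.18, neither passing (adjusted p = 0.173 and 0.299). With libraries rescaled to the same sum, Kit passed as lower than in Pro in Baso (-0.52, adjusted p = 0.0179) and in Ortho (-0.63, adjusted p = 0.00449). Without Baso replicate 3 the difference of Baso from Pro passed (-0.47, adjusted p = 0.0392), as did that of Ortho without Ortho replicate 3 (-0.42, adjusted p = 0.0391), and without Pro replicate 3 that of Poly was 0.06 (adjusted p = 0.752). Over all genes tested, deviations of same-numbered Baso, Poly and Ortho libraries from their stage means correlated weakly, at 0.156 to 0.319, and pairing is not established. In a model of these 3 stages blocked by replicate, Kit was higher in Poly than in Baso (0.27, adjusted p = 0.0246). With this block, Kit was also lower in Ortho than in Poly (-0.20, adjusted p = 0.0486). Neither difference passed without the block (adjusted p = 0.293 and 0.440). That block took the number of genes that passed from Baso to Poly from 1605 to 2863. Mast cells also carry KIT. The mast cell and basophil markers together rose from 241 to 380 FPKM in Pro to 638 to 754 in Ortho. The part of mast cells in the level of Kit was not tested.

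Jak2, the kinase bound to the EPO receptor (ENSMUSG00000024789, chr19:29251828-29313080, plus strand), had FPKM of 31.0, 32.5 and 32.3 in Pro, 36.5, 33.0 and 35.7 in Baso, 36.5, 35.0 and 37.5 in Poly, and 23.0, 20.3 and 21.8 in Ortho. Baso and Poly lay slightly above Pro in every library, and Ortho lay below all other stages. The means were 31.9 ± 0.815, 35.1 ± 1.85, 36.3 ± 1.27 and 21.7 ± 1.37 (SD, n = 3 each). Jak2 fell from Poly to Ortho by 0.72 on the log2 scale (SE 0.07, adjusted p = 9.85e-06), 1.68 times lower, and this passed under every alternative. The fall from Pro to Ortho was -0.54 (SE 0.07, adjusted p = 2.45e-05) as deposited, -0.14 with libraries centred on their median (adjusted p = 0.0683) and -0.06 with hemoglobin genes left out (adjusted p = 0.393). Baso passed as higher than Pro with libraries centred on their median (0.43, adjusted p = 0.00026) and with hemoglobin genes left out (0.44, adjusted p = 0.000254), against 0.13 as deposited (adjusted p = 0.13). The small rise from Pro to Poly (0.18, SE 0.07, adjusted p = 0.0386) was lost under 9 alternatives, among them leaving out any Pro library, Poly replicate 1 or 3 or Ortho replicate 3 (adjusted p 0.0524 to 0.117) and rescaling to the same sum (adjusted p = 0.971).

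Within a library the ratio of 2 genes does not depend on the scaling of that library. The ratio of Epor to Jak2 was 4.66 ± 0.286 (Pro), 4.44 ± 0.336 (Baso), 4.61 ± 0.146 (Poly) and 2.15 ± 0.152 (Ortho) (SD, n = 3 each), so receptor RNA fell more than kinase RNA at the last step. An exact permutation test of differences among the 4 stages over all 15400 divisions of the libraries gave p = 0.0117, or 0.0137 adjusted over the 4 ratios computed, which were chosen after the values were seen. The smallest p this test can give is 6.49e-05.

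Stat5a and Stat5b encode the transcription factors activated by JAK2, and the 2 genes lie 8626 bases apart on chromosome 11 (Stat5a ENSMUSG00000004043, chr11:100859351-100885169, plus strand, and Stat5b ENSMUSG00000020919, chr11:100780731-100850724, minus strand). They are near-identical copies in their coding sequence, so how the authors' counting split shared reads between them is uncertain, and exons of Stat5a share 72 bases with Stat3 on the other strand. Stat3 ran at 15.2 to 29.5 FPKM, and the use of strand in the counting is not given in the sources used here.

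The FPKM of Stat5a was 23.5, 23.7 and 29.8 in Pro, 10.4, 11.6 and 10.4 in Baso, 10.4, 11.8 and 10.3 in Poly, and 12.8, 12.8 and 10.1 in Ortho. Every Pro library lay above every later library, and the 3 later stages overlapped each other. Stat5a fell from a mean of 25.7 ± 3.57 in Pro to 10.8 ± 0.673 in Baso (SD, n = 3 each), 2.38 times lower (log2 fold change -1.17, SE 0.12, adjusted p = 1.01e-05). The level then stayed between means of 10.8 and 11.9, with no later step that passed (adjusted p = 0.983 from Baso to Poly and 0.563 from Poly to Ortho). The fall against Pro passed in all 3 later stages under every alternative, in Ortho at -1.40 to -0.59 on the log2 scale.

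The FPKM of Stat5b was 14.8, 27.5 and 28.4 in Pro, 17.4, 16.5 and 18.2 in Baso, 19.5, 18.6 and 17.7 in Poly, and 19.7, 18.7 and 19.0 in Ortho. Pro replicate 1 lay below all other libraries and Pro replicates 2 and 3 above all of them. The mean of 23.6 ± 7.63 in Pro was therefore not shown to differ from 17.3 ± 0.864 in Baso (SD, n = 3 each, log2 fold change -0.37, SE 0.19, adjusted p = 0.112). Without Pro replicate 1, Stat5b was lower in Baso (-0.66, adjusted p = 4.97e-05), Poly (-0.57, adjusted p = 8.54e-05) and Ortho (-0.53, adjusted p = 8.69e-05). With libraries rescaled to the same sum it was lower too, at -0.54 in Baso (adjusted p = 0.0227), -0.45 in Poly (adjusted p = 0.0464) and -0.59 in Ortho (adjusted p = 0.0111). With hemoglobin genes left out, the sign in Ortho turned to 0.24 (adjusted p = 0.252). The ratio of Stat5a to Stat5b was 1.59, 0.863 and 1.05 in the Pro libraries and between 0.530 and 0.703 in the 9 later ones, so that the groups did not overlap. The exact permutation test over the 4 stages gave p = 0.0137, and 0.0137 adjusted over the 4 ratios.

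**Figure D3:**
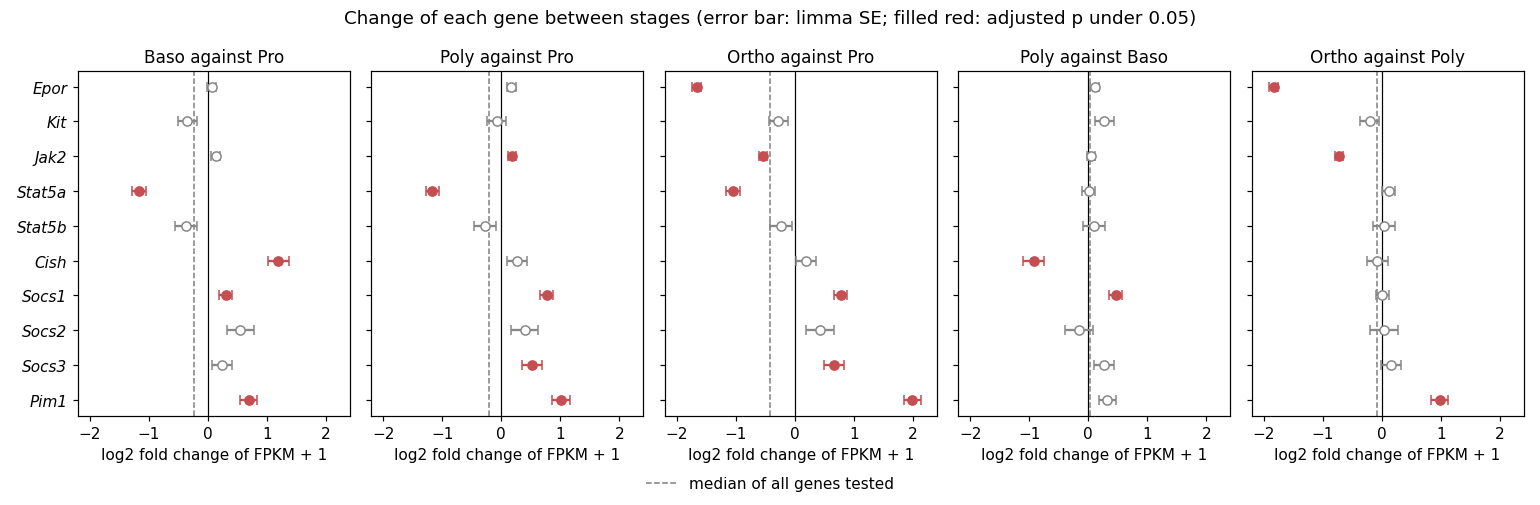
Log2 fold change of FPKM + 1 of each of the 10 genes in the 5 comparisons, with SE as bars, filled red where the adjusted p was under 0.05; the dashed line is the median of all genes tested. Epor falls only where Ortho is compared, by 1.66 against Pro and 1.83 against Poly, Cish rises in Baso and falls in Poly, and Pim1 is higher in every comparison except that Poly against Baso did not pass.

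Cish, an inhibitor that docks on phosphorylated receptors (ENSMUSG00000032578, chr9:107296026-107302784, plus strand), is the classical early target of STAT5. Most of its promoter window is printed because it holds the motif TTCNNNGAA at 2 places just after the start site, and GATAAG at -228 to -223 (RefSeq, GRCm38.p6, chr9:107296409-107296678, plus strand, motifs in capitals):
Cish promoter: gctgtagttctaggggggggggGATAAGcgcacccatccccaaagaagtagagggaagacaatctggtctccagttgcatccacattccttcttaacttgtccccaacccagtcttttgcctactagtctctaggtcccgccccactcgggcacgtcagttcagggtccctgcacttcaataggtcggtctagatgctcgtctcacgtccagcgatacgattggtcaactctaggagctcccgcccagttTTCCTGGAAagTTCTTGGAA
The motif reads the same on both strands. At least 1 copy stood in 8.3% of all 32851 promoter windows, and 2 or more copies in 0.457%. Of the 10 genes, 9 had a window in the table (13 windows in all), and the motif was found in those of Cish and Socs3.

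The FPKM of Cish was 1.12, 1.10 and 1.12 in Pro, 4.89, 2.86 and 3.99 in Baso, 1.81, 1.89 and 1.04 in Poly, and 1.52, 1.17 and 1.59 in Ortho. Every Baso library lay above every library of the other stages, Pro and Poly overlapped, and Poly and Ortho overlapped. The mean rose 3.51-fold from 1.11 ± 0.00946 in Pro to 3.91 ± 1.02 in Baso (SD, n = 3 each, log2 fold change 1.19, SE 0.17, adjusted p = 0.000139). It fell again to 1.58 ± 0.470 in Poly, 2.48 times lower than in Baso (log2 fold change -0.93, SE 0.17, adjusted p = 0.00866). Rise and fall both passed under every alternative in which the gene was tested, at 0.54 to 1.69 and -1.27 to -0.43. In Ortho the mean was 1.43 ± 0.220, which was not shown to differ from Pro with the values as deposited (0.19, adjusted p = 0.325), was higher with libraries centred on their median (0.59, adjusted p = 0.00824) and with hemoglobin genes left out (0.46, adjusted p = 0.0337). It stood at -0.01 with libraries rescaled to the same sum (adjusted p = 0.957). Poly passed as higher than Pro without Poly replicate 3 (0.43, adjusted p = 0.0466), against 0.27 with it (adjusted p = 0.189). It also passed with libraries centred on their median (0.52, adjusted p = 0.0187) and with hemoglobin genes left out (0.45, adjusted p = 0.0409). Cish was a lowly expressed gene, its mean exceeding that of 7.76% of the genes tested in Pro and 32.9% in Baso. Its exons share up to 321 bases with genes annotated on the other strand, of which Gm17040 was listed at 0 to 0.254 FPKM and Gm17041 was not analysed here.

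Socs1, which blocks JAK kinases directly (ENSMUSG00000038037, chr16:10782240-10785536, minus strand), had FPKM of 1.51, 1.48 and 1.57 in Pro, 2.00, 2.61 and 1.76 in Baso, 3.47, 2.96 and 3.42 in Poly, and 3.36, 3.14 and 3.42 in Ortho. The Pro, Baso and Poly libraries formed 3 steps without overlap, and Poly and Ortho overlapped. Of all genes tested, 16.8% were higher without overlap in Baso against Pro and 20.5% in Poly against Baso. The mean was 1.52 ± 0.0451 (Pro), 2.12 ± 0.437 (Baso), 3.29 ± 0.280 (Poly) and 3.31 ± 0.146 (Ortho) (SD, n = 3 each). Socs1 was 2.17-fold higher in Poly (log2 fold change 0.77, SE 0.11, adjusted p = 0.000112) and 2.18-fold higher in Ortho (0.77, SE 0.11, adjusted p = 6.65e-05) than in Pro, and both passed under every alternative that tested the gene. The step from Pro to Baso (0.30, SE 0.11, adjusted p = 0.0392) was lost under 13 alternatives, among them leaving out any Pro library, Baso replicate 1 or 2, Poly replicate 3 or Ortho replicate 1 or 3 (adjusted p 0.0512 to 0.156) and rescaling to the same sum (0.19, adjusted p = 0.171). That from Baso to Poly (0.46, SE 0.11, adjusted p = 0.0256) was lost without Baso replicate 1 or 3 or Poly replicate 1 or 3 (adjusted p 0.0585 to 0.0917).

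Socs2, an adaptor best known for restraining growth hormone signalling (ENSMUSG00000020027, chr10:95385362-95417180, minus strand), had FPKM of 0.183, 1.44 and 0.537 in Pro, 1.13, 1.97 and 1.20 in Baso, 1.22, 1.04 and 1.23 in Poly, and 1.54, 1.01 and 1.13 in Ortho. All stages overlapped, and the Pro libraries spread most, with replicate 2 above all Poly and Ortho libraries but Ortho replicate 1. The means were 0.721 ± 0.650, 1.43 ± 0.468, 1.16 ± 0.106 and 1.22 ± 0.277 (SD, n = 3 each). No comparison passed as deposited, and the largest difference was that of Baso from Pro (0.55, SE 0.23, adjusted p = 0.063). Without Pro replicate 2, all 3 later stages were higher than Pro, Baso by 0.84 (adjusted p = 0.00336), Poly by 0.68 (adjusted p = 0.00855) and Ortho by 0.71 (adjusted p = 0.00531). With libraries centred on their median, the 3 stages were also higher, Baso by 0.85 (adjusted p = 0.01), Poly by 0.64 (adjusted p = 0.0308) and Ortho by 0.83 (adjusted p = 0.00783). With hemoglobin genes left out, Baso (0.67, adjusted p = 0.0234) and Ortho (0.65, adjusted p = 0.0197) passed.

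Socs3, which binds both receptor and JAK and restrains EPO signalling in the fetal liver (ENSMUSG00000053113, chr11:117966079-117970047, minus strand), carries 1 TTCNNNGAA in its promoter. The stretch around it is shown beside that of Cish because it is the only other of the 9 genes with a window to hold the motif, here at -154 to -146 (RefSeq, GRCm38.p6, chr11:117969487-117969546, minus strand, motif in capitals):
Socs3 promoter: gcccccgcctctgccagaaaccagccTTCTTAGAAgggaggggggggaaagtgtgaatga
The FPKM of Socs3 was 1.48, 1.55 and 1.26 in Pro, 2.71, 1.43 and 1.65 in Baso, 3.02, 2.06 and 2.39 in Poly, and 3.11, 2.34 and 3.16 in Ortho. All Poly and Ortho libraries lay above all Pro libraries, while Baso spread over both ranges. The mean was 1.43 ± 0.150 (Pro), 1.93 ± 0.687 (Baso), 2.49 ± 0.487 (Poly) and 2.87 ± 0.458 (Ortho) (SD, n = 3 each), 2.01-fold higher in Ortho than in Pro (log2 fold change 0.67, SE 0.17, adjusted p = 0.00372), and this passed under every alternative that tested the gene. The rise in Poly (0.51, SE 0.17, adjusted p = 0.0189) was lost without Poly replicate 1 (0.41, adjusted p = 0.0774), without Pro replicate 3 (0.46, adjusted p = 0.0614), with libraries rescaled to the same sum (0.41, adjusted p = 0.0617) and with no filter on low values (adjusted p = 0.0543). The difference of Baso from Pro (0.25, adjusted p = 0.233) passed with libraries centred on their median (0.54, adjusted p = 0.0169). Cish and Socs3, the genes with the motif, thus had different courses, Cish with its highest level in Baso and Socs3 in Ortho. Socs1 and Socs3 rose over the same stages as the neutrophil, B cell and macrophage markers, whose part in these low levels was not tested.

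Pim1, a kinase that supports survival and is induced through STAT5 (ENSMUSG00000024014, chr17:29490753-29496112, plus strand), had FPKM of 42.9, 52.4 and 39.0 in Pro, 86.6, 66.0 and 66.0 in Baso, 107, 86.2 and 80.1 in Poly, and 199.9, 175 and 165 in Ortho. Pro lay below and Ortho above all other libraries, and Baso and Poly overlapped. The mean was 44.8 ± 6.90 (Pro), 72.9 ± 11.9 (Baso), 91.2 ± 14.3 (Poly) and 180.1 ± 17.8 (Ortho) (SD, n = 3 each). Against Pro, Pim1 was 1.63-fold higher in Baso (log2 fold change 0.69, SE 0.15, adjusted p = 0.00197), 2.04-fold higher in Poly (1.01, SE 0.15, adjusted p = 0.000101) and 4.02-fold higher in Ortho (1.99, SE 0.15, adjusted p = 2.69e-07). The step from Poly to Ortho was 1.98-fold (0.98, SE 0.15, adjusted p = 0.000319). The 4 differences passed under every alternative, that in Ortho against Pro at 1.63 to 2.48. The step from Baso to Poly did not pass without the replicate block (0.32, adjusted p = 0.174) and passed with it in the model of the later stages (adjusted p = 0.0085). An antisense gene, Gm26885, shares 261 exon bases with Pim1 and ran at 1.63 to 8.58 FPKM. The macrophage markers stepped up without overlap over the same stages as Pim1, at sums of 16.2 to 22.7, 25.0 to 26.2, 28.7 to 33.4 and 37.2 to 42.8 FPKM. So did the B cell markers, at 124 to 197, 247 to 252, 350 to 368 and 392 to 407 FPKM. The part of either in the level of Pim1 was not tested.

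The ratio of Pim1 to Epor was 0.302 ± 0.0543 (Pro), 0.472 ± 0.0990 (Baso), 0.547 ± 0.105 (Poly) and 3.90 ± 0.538 (Ortho) (SD, n = 3 each, exact permutation p = 0.00039, 0.00156 adjusted over the 4 ratios). The Ortho libraries, at 3.30 to 4.35, lay apart from the other 9, at 0.264 to 0.661. The ratio of Cish to Epor was 0.00750 ± 0.000244 (Pro), 0.0252 ± 0.00707 (Baso), 0.00952 ± 0.00314 (Poly) and 0.0306 ± 0.00311 (Ortho) (SD, n = 3 each, exact permutation p = 0.00253, 0.00506 adjusted). In Ortho the high ratio came with low Epor, Cish itself being at 1.17 to 1.59 FPKM.

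**Figure D4:**
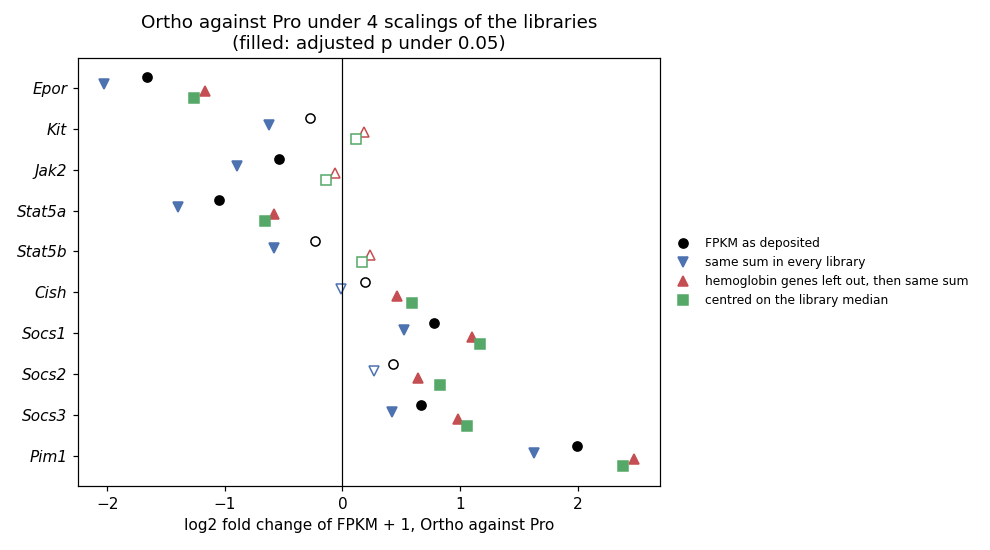
Log2 fold change of each of the 10 genes in Ortho against Pro with the FPKM as deposited and under the 3 other scalings of the libraries. Epor and Stat5a stay below 0 and Pim1, Socs1 and Socs3 above 0 under all of them, while Kit, Stat5b and Cish change sign with the scaling.

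The wider pathway was described by a list of 77 further genes in the table, of which 71 were tested. This list was chosen with earlier results of these data known, so its split beside all genes carries no test. In Ortho against Pro, 34 were higher, 21 were lower and 16 did not pass, with a median log2 fold change of 0.22 against -0.42 for all genes, and 11 were called higher and 7 lower, beside 6.33% and 23.8% of all genes. In Baso against Pro 22 were higher and 17 lower, beside 14.9% and 42.1% of all genes. In Poly against Pro 37 were higher and 14 lower, beside 23.3% and 42.7%. From Baso to Poly 18 were higher and 4 lower, beside 6.58% and 5.77%. From Poly to Ortho 4 were higher and 14 lower, beside 4.43% and 21.7%. These splits moved with the scaling, in Ortho against Pro to 46 higher and 12 lower with libraries centred on their median. They were 46 and 13 with hemoglobin genes left out, and 17 and 30 with libraries rescaled to the same sum. The split of all genes called, a stricter criterion than passing, moved in the same directions. Of all genes called in Ortho against Pro, 21% were higher as deposited and 61.6% when centred. The share was 63.4% with hemoglobin genes left out and 6.16% at the same sum. The counts by role below are for the FPKM as deposited, where 22.7% of all genes were higher and 53.2% lower. Counts under 2 other scalings follow them. The shares of all genes that passed under those 2 scalings are not given here, so those counts cannot be set against them. Of the 34 genes named below, 25 kept their direction and passed under these 3 scalings. The 9 others were Sos1, whose sign turned, and Map2k1, Spred1, Spred2, Socs7, Osm, Ccnd2, Erfe and Il3ra, which kept their sign and did not pass under at least 1 of them. The ligands were at or near 0, with Epo listed at 0 to 0.0438 FPKM and Kitl, which encodes stem cell factor, at 0 to 0.130 FPKM. Markers of neutrophils, B cells, mast cells and basophils were also higher in Ortho than in Pro. The part of such cells in the rises of pathway genes given below was not tested.

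Among 4 partners of the receptors, 2 rose and 2 fell in Ortho against Pro, and so they did with libraries centred on their median or rescaled to the same sum. Tfr2, which binds the EPO receptor and helps it to the surface, fell at every stage, with means of 54.3 ± 6.23, 22.2 ± 2.24, 12.1 ± 0.858 and 6.17 ± 0.721 FPKM from Pro to Ortho (SD, n = 3 each, log2 fold change in Ortho -2.95, adjusted p = 3.84e-09). Tfr2 was lower than in Pro already in Baso (-1.25, adjusted p = 5.5e-06), where the log2 fold change of Epor was 0.06. Scrib, a scaffold protein that takes part in receptor traffic, fell by 0.87 on the log2 scale. Csf2rb and Csf2rb2, the beta chains shared by the IL-3, GM-CSF and IL-5 receptors, rose by 1.11 and 1.20 on that scale. Of 8 other growth factor and hormone receptors tested, 4 rose and none passed as lower (6 and 0 centred, 2 and 3 at the same sum), with Csf1r (1.11), Flt3 (1.07) and Il3ra (0.62) having the largest rises. These receptors mark myeloid and early progenitor cells, whose markers rose too, and the part of such cells was not tested.

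Of 14 adaptors and kinases near the receptors, 7 rose and 4 fell in Ortho against Pro (9 and 2 centred, 4 and 5 at the same sum). Lyn, a SRC family kinase that acts beside JAK2, rose from 21.8 ± 2.70 to 44.2 ± 2.57 FPKM (SD, n = 3 each, log2 fold change 0.99, adjusted p = 1.49e-06), with Tec (1.02) and the adaptor Gab2 (0.83). The part of other blood cells in these rises was not tested. Gab1, the docking protein that links the EPO receptor to PI3K, fell at each stage, from 12.7 ± 1.25 through 7.92 ± 1.17 and 3.94 ± 0.321 to 1.03 ± 0.118 FPKM (SD, n = 3 each, log2 fold change in Ortho -2.75, adjusted p = 6.28e-09). The adaptor Shc1 fell from 65.4 ± 4.48 to 26.2 ± 1.27 FPKM (-1.28), and Sos1 fell by 0.35. Of 13 PI3K and MAPK genes, 4 rose and 7 fell (6 and 4 centred, 2 and 8 at the same sum). The PI3K subunits Pik3r1 (1.37) and Pik3cd (1.07) and the kinase Map2k1 (0.41) rose most, and Hras (-1.28) and Map2k2 (-1.23) fell most. The kinases that activate the MAPKs therefore moved apart, Map2k2 from 87.7 to 36.8 FPKM and Map2k1 from 19.0 to 25.6 FPKM.

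Of 9 other genes listed as negative regulators, 6 rose and 3 fell (6 and 1 centred, 4 and 3 at the same sum, where 10 were tested). Dusp6, a phosphatase that switches off MAPKs, rose by 1.22 on the log2 scale, Cbl, a ubiquitin ligase that acts on KIT, by 0.76, and Ptpn6, the phosphatase SHP-1 that acts on the EPO receptor and JAK2, from 49.8 to 84.4 FPKM (0.75, adjusted p = 0.000164). Ptpn11, the related phosphatase SHP-2, was on this list although it promotes RAS signalling. It fell from 31.1 to 17.3 FPKM (-0.81, adjusted p = 2.59e-07), and Spred2 (-0.48) and Spred1 (-0.42) fell too. Of 14 further SOCS, PIM, JAK and STAT genes, 7 rose and 2 fell (12 and 1 centred, 2 and 5 at the same sum). Pim2, a relative of Pim1, rose from 3.79 to 9.65 FPKM (1.18, adjusted p = 0.000106) and Stat4 by 0.99, and Socs7 (-0.79) and Socs4 (-0.76) fell, in contrast to Socs1 and Socs3.

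Of 9 known targets of EPO or STAT5 tested, 4 rose and 3 fell (5 and 2 centred, 1 and 4 at the same sum). Bcl2l1, which encodes the survival protein BCL-XL, rose from 9.22, 19.7 and 9.08 FPKM in the Pro libraries to 152, 153 and 141 in Ortho (log2 fold change 3.54, adjusted p = 2.42e-07), with means of 48.4 ± 8.36 in Baso and 49.6 ± 11.02 in Poly (SD, n = 3 each). Bcl2l1 thus rose at the first and the last step, and Bcl2l11, which encodes the cell death protein BIM, fell from 15.1 ± 1.72 in Pro to 5.11 ± 0.396 in Ortho (SD, n = 3 each, -1.40, adjusted p = 8.05e-06). Gfi1b, a transcriptional repressor needed for erythroid maturation, fell from 99.2 ± 14.9 in Pro to 12.3 ± 1.41 in Ortho (SD, n = 3 each, -2.91, adjusted p = 1.52e-08). The cytokine gene Osm spread over 15.5 to 43.6 FPKM in Ortho and 10.8 to 14.3 in Pro and just passed (1.05, adjusted p = 0.0462). Osm was lost without any Pro library, Baso, Poly or Ortho replicate 2 or Ortho replicate 1 (adjusted p 0.0574 to 0.182), the only of the 34 genes lost in this way. Ccnd2 rose by 0.55. Erfe, which encodes the iron hormone erythroferrone, was low throughout, at 0.841 to 2.01 FPKM in Pro and 0.0689 to 0.308 in Ortho (-0.89, adjusted p = 0.00578).

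**Figure D5:**
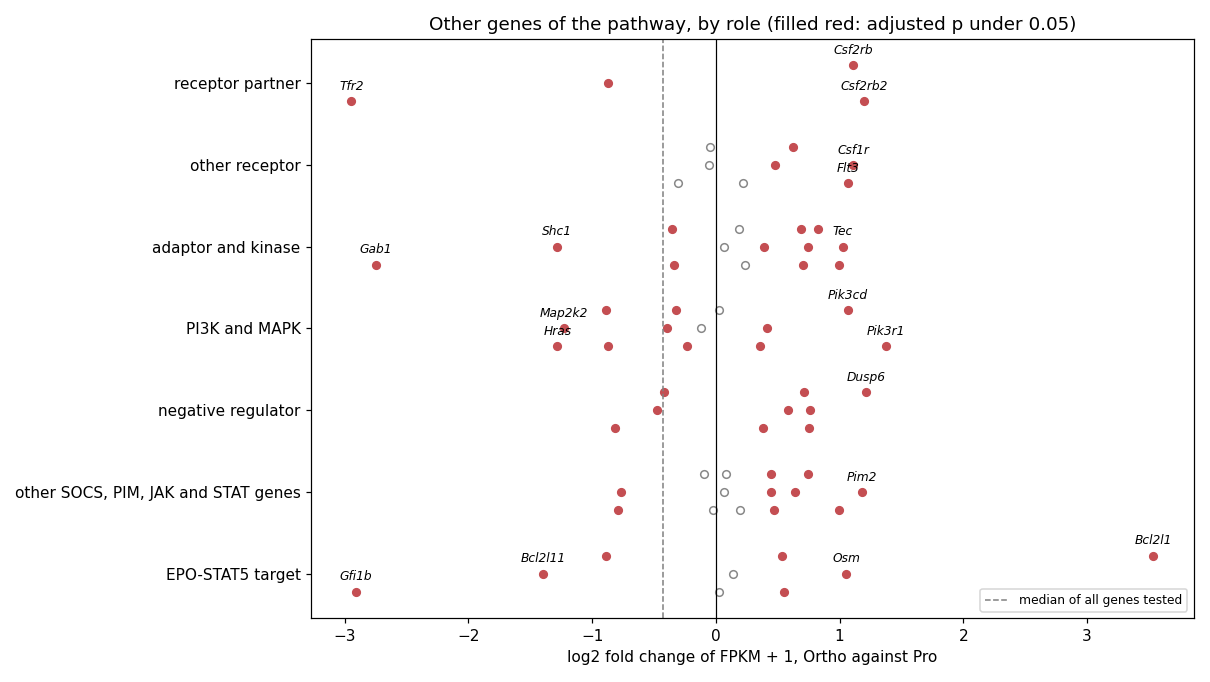
Log2 fold change in Ortho against Pro of the tested genes of the pathway list, grouped by role, with points filled red where the adjusted p was under 0.05 and names on genes that moved by 1 or more. Bcl2l1 stands highest at 3.54 and Tfr2 (-2.95), Gfi1b (-2.91) and Gab1 (-2.75) lowest.

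The genes most like Epor over the 12 libraries, by Pearson correlation of log2(FPKM + 1) among 6010 genes with a mean FPKM of at least 10, were Cdca4 (0.996), Ska1 (0.994) and Espl1 (0.994). Ska1 is part of the attachment of chromosomes to the spindle and Espl1 is separase, which releases sister chromatids. Like Epor, Cdca4 was level over the first 3 stages, at 61.8, 62.1 and 63.3 FPKM, and lower in Ortho, at 21.2 FPKM. Kit had no neighbour as close, with Smarca4, a chromatin remodeller, at 0.847, Ero1l at 0.821 and Erdr1 at 0.813. Cish was closest to Vbp1 (0.914), Zdhhc14 (0.887) and Iqgap2 (0.883), and Iqgap2 went from 23.7 FPKM in Pro to 33.2 in Baso and back to 23.6 in Poly. These correlations describe libraries of 4 stages that share their composition, and they carry no test.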

How the data were processed

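From reads trimmed with Cutadapt and Trimmomatic, aligned to mm10 by HISAT2 and counted by featureCounts, the authors made and deposited 1 table of FPKM values for 12 libraries; versions and the tool that computed the FPKM are not given in the sources used here. Trizol and the NEBNext Ultra kit stand in the labels, other reagents in the study's methods. Of the 29839 lines, 1 repeated a gene and was dropped, leaving 29838. Ratios of values under 0.03 from pairs of libraries showed no steps (at most 3.88% to 7.66% within 0.1 on the log2 scale), so reads could not be recovered and the depth is unknown. No 2 libraries were identical, and libraries of a stage correlated at 0.973 to 0.984.

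The test was limma 3.58.1 (R 4.3.3) for the 12994 genes that reached an FPKM of 1 in 3 or more libraries, using log2 values with a pseudocount of 1, a variance trend and all 12 libraries in 1 model, two-sided. The model was checked on simulated data with independent normal spread and no shift in library composition, so this check does not cover the scaling. The authors' DESeq2 test needs counts and was not repeated. An exact test of 3 against 3 libraries cannot go below p = 0.1. Genes named were the 10 members, up to 3 pathway genes per role with the largest rise and fall in Ortho against Pro among those that passed, and the 3 genes most correlated with Epor, Kit and Cish; some genes that met this rule are not reported here. The members and lists were chosen with earlier results of these data known. Alternatives were other pseudocounts, filters and scalings, no variance trend, 2-stage models, a replicate block and leaving out each library.

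Deviations of same-numbered libraries from their stage means correlated at 0.182 to 0.238 for Baso with Poly and 0.156 to 0.264 for Baso with Ortho. For Poly with Ortho they correlated at 0.156 to 0.319. The block of these stages rests on these values alone, as no label gives a source. Libraries of different numbers were not compared, so pairing is not established. With Pro they correlated at 0.00524 to 0.0968. Positions come from GENCODE M21 (mm10) and promoters from RefSeq (GRCm38.p6), read with Python 3.11.15.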

Additional observations from a re-analysis of the deposited data

How the results depend on the processing

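Of the 50 differences of the 10 genes in 5 comparisons, 21 kept their direction and their side of the threshold under every alternative and 29 did not. The genes called numbered 2, 2 and 3 in Baso, Poly and Ortho against Pro, 0 in Poly against Baso and 1 in Ortho against Poly. With the adjusted p as the only criterion they were 4, 5, 6, 2 and 3. With a pseudocount of 5, which shrinks the folds of low genes by construction, they were 0 in Baso and 0 in Poly against Pro, and with a pseudocount of 0.1 there was 1 in Poly against Baso. Centring on the median gave 1 in Baso against Pro and 2 in Ortho against Poly. Leaving out hemoglobin genes gave 1 in Baso against Pro, 1 in Poly against Pro and 2 in Ortho against Poly, and rescaling to the same sum gave 1 in Poly against Pro. A mean FPKM of at least 5, which drops the Cish and Socs genes, gave 1 in Baso against Pro. Leaving out a library gave 1 to 2 in Poly against Pro (1 without Poly replicate 1, Pro replicate 1 or Pro replicate 3). In Poly against Baso it gave 0 to 1 (1 without Baso or Poly replicate 2). In Ortho against Poly it gave 1 to 2 (2 without Poly replicate 1 or Ortho replicate 3). In Ortho against Pro there were 4 centred on the median and 4 with a pseudocount of 0.1. There were 2 with a pseudocount of 5, without Pro replicate 3 or without Ortho replicate 3. Stat5a was not called in Ortho against Pro when centred (-0.66) or with hemoglobin genes left out (-0.59). Socs1 was called there under both (1.17 and 1.10), and Socs3 when centred (1.06). A pseudocount of 0.1 gave 3 in Poly against Pro. The number called over all genes moved too. In Baso, Poly and Ortho against Pro it was 1347, 2130 and 3915 of 12994 as deposited. It was 598, 1069 and 2088 with a pseudocount of 5, and 1998, 3169 and 5276 with a pseudocount of 0.1. Centred on the median it was 963, 2145 and 3371. With hemoglobin genes left out (13037 tested) it was 908, 2065 and 3145, and at the same sum (13045 tested) 1998, 2707 and 5182. From Poly to Ortho it was 762 as deposited and 633 centred.

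Directions turned only in differences that did not pass as deposited, and no turned value passed, but some of these differences passed in their first direction under another scaling, as given with each gene. Rescaling to the same sum gave log2 fold changes of -0.011 for Cish in Ortho against Pro, -0.116 and -0.0101 for Epor in Baso and Poly against Pro, -0.0447 for Jak2 in Baso against Pro, and in Ortho against Poly -0.133 for Socs1, -0.0655 for Socs2, -0.0588 for Stat5a and -0.139 for Stat5b. Centring on the median gave 0.0732 for Cish in Ortho against Poly, 0.12 and 0.17 for Kit in Ortho and Poly against Pro, -0.0433 for Stat5a in Poly against Baso and 0.16 for Stat5b in Ortho against Pro. Leaving out hemoglobin genes gave 0.0102 for Cish in Ortho against Poly, 0.18 and 0.25 for Kit in Ortho and Poly against Pro, and 0.24 and 0.0595 for Stat5b in Ortho and Poly against Pro. Leaving out a library gave -0.237 to 0.0157 for Cish, -0.046 to 0.0411 for Socs1 and -0.0651 to 0.104 for Socs2 in Ortho against Poly, -0.175 to 0.0635 for Kit in Poly against Pro and -0.0524 to 0.052 for Stat5a in Poly against Baso. The cause of these changes was not tested.

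Of all genes called in Ortho against Pro, 21% were higher as deposited, 63.4% with hemoglobin genes left out, 61.6% centred and 6.16% at the same sum. A replicate block was also fitted over all 12 libraries, though pairing of the Pro libraries was not shown. It passed Kit in Baso (adjusted p = 0.00206) and Ortho (adjusted p = 0.00438) against Pro and in Poly against Baso (adjusted p = 0.033). It also passed Epor in Poly against Pro (adjusted p = 0.0393), and lost Socs1 in Baso against Pro (adjusted p = 0.0548). Beside the values given with Kit and Pim1, the block changed no other call. The pathway genes called ranged from 2 to 6 (5 as reported) in Baso, 2 to 19 (10) in Poly and 8 to 26 (18) in Ortho against Pro. With 3 libraries a stage and unknown depth, small differences of genes near an FPKM of 1 could not be resolved.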
